A study of Mus musculus with 10 samples.

Results

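The genes described here are 10 genes of lipid handling by macrophages, Trem2, Apoe, Lpl, Cd36, Fabp4, Fabp5, Abca1, Abcg1, Pparg and Gpnmb, out of 31053 genes counted in tumors grown from E0771 cells, a mouse mammary carcinoma line. They were taken by name, from a list drawn up with earlier results of these data known, and all 10 had a unique molecular identifier (UMI, 1 per captured RNA molecule) in the barcodes kept. The line was injected into the mammary fat pad of female mice aged 16 weeks, the tumors were taken on day 21, and single cells were captured in droplets with a 3′ kit. WT mice were compared with EC-AGO1-KO littermates, in which Cre driven by the VE-cadherin promoter (Cdh5-cre) deletes a floxed Ago1 in endothelial cells (ECs), on a C57BL/6 background. Every mouse of both groups carried the same injected line, and the alleles of the WT littermates are not given in the sources used here. The study's text, citing earlier work, gives the deletion as one of ECs and not of monocytes, so the macrophages of KO tumors are host cells in a host whose ECs were altered.

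There were 5 WT and 5 KO libraries in 2 labelled batches. Batch 1 held 1 library of each group, and batch 2 held WT1, WT3, WT4, WT5, KO1, KO2+3, KO4 and KO5+6. Both libraries with a plus sign pooled 2 tumors, so the KO libraries held 7 tumors. Of all barcodes, 65298 passed the limits of 200 to 7000 genes and of 10% mitochondrial UMIs, are called kept barcodes here, and were clustered within each batch with the 10 genes left out of the clustering genes. Clusters were named from marker genes with the ending "-like". Levels are UMIs per 1000000 UMIs of the same class and library (CPM), with Actb left out of the total because it took 8.77% to 17.0% of the UMIs of kept barcodes in batch 2.

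The batches differed in depth and in which genes they captured, so values are given by batch. A kept barcode had a median of 4049 UMIs in the WT and 3862 in the KO library of batch 1, but 595 to 1142 in the batch 2 libraries. The macrophage-like class held 547 barcodes in batch 1 and 1006 in batch 2, with 24 (WT4) to 265 (KO2+3) per library in batch 2. All 13 macrophage markers, among them C1qa, Adgre1 and Mrc1, had UMIs in the class in both batches, and their summed level was 17575 CPM in batch 1 and 5162 CPM in batch 2. The class was named with the help of these markers, and all 13 also had UMIs in tumor-like barcodes, at 52.1 and 35.2 CPM. The 7 tumor markers summed to 1735 and 3635 CPM in the macrophage-like class of batches 1 and 2. The genes that led the class in batch 2 included C5ar1, Adgre1, Lyz2 and Ms4a7. An estimated 13.9% to 30.4% of the UMIs of macrophage-like barcodes were free RNA, and 32.8% to 45.7% of these barcodes per library held a UMI of a tumor gene (Pvt1, Fmnl2 or Cdh13). The endothelial-like class held only 192 barcodes, and in it Ago1 had 0 UMIs in each of the 10 libraries, so the deletion could not be checked there. Libraries shared at most 0.503% of the kept barcodes of the smaller one. Clusters left unnamed held 12.8% of the kept barcodes of the KO library and 15% of the WT library in batch 1, and 4.48% to 6.69% (WT) and 4.77% to 8.94% (KO) in batch 2.

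Macrophages clear lipoproteins, dying cells and membrane debris, and must store, burn or export the lipid they take in. Fatty acids enter through CD36, or after lipoprotein lipase (Lpl) has cut them from triglyceride, and are carried in the cytosol by FABP4 and FABP5. Cholesterol leaves through the transporters ABCA1 and ABCG1 to apolipoproteins such as APOE, and the nuclear receptor PPARγ (Pparg) controls many of these genes. TREM2, a receptor for lipids, and GPNMB, a glycoprotein of lysosomes and melanosomes, are known from lipid-laden macrophages of fat tissue, atherosclerotic plaques and tumors. Cd36, Fabp4 and Pparg are also expressed in capillary ECs and in adipocytes, and Gpnmb in other cells, tumor cells among them.

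The 3 pairs of members with the most alike levels across classes and libraries were Cd36 and Pparg, Trem2 and Apoe, and Cd36 and Abca1, with Pearson's r of 0.71, 0.64 and 0.64 over 61 sums of a class in a library. These sums share libraries, depth and batch, so the r describes them and has no test. The 250 bases before the RefSeq start of these 5 genes (GRCm38.p6) are shown because the data put these genes together. RefSeq promoters of 6 of the 10 members were used. Capitals mark matches on either strand to TATAAA, to AGGTCA, the hexamer that nuclear receptors bind, and to a loose form of the DR4 element, the spaced pair of hexamers that liver X receptors bind.
Trem2, chr17:48346151-48346400, plus strand: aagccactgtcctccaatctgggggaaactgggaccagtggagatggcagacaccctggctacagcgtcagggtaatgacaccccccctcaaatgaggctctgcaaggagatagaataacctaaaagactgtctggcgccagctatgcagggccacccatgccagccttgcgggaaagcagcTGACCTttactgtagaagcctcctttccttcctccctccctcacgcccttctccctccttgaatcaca
Apoe, the first of 3 starts, chr7:19699189-19699438, minus strand: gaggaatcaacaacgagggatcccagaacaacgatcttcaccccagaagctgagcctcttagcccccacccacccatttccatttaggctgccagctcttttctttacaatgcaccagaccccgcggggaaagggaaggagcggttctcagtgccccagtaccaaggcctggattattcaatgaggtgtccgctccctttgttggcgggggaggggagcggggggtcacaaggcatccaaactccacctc
Cd36, chr5:17835897-17836146, minus strand: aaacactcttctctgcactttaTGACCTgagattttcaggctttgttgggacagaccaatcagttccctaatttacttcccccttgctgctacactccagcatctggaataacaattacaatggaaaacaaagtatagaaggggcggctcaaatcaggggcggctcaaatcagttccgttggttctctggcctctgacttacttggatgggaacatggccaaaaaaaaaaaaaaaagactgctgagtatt
Pparg, the first of 3 starts, chr6:115360894-115361143, plus strand: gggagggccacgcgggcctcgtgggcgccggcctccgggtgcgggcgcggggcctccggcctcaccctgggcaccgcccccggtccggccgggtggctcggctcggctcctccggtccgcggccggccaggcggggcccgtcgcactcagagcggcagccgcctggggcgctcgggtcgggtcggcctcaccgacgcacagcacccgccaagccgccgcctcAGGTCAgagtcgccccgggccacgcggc
Abca1, chr4:53159896-53160145, minus strand: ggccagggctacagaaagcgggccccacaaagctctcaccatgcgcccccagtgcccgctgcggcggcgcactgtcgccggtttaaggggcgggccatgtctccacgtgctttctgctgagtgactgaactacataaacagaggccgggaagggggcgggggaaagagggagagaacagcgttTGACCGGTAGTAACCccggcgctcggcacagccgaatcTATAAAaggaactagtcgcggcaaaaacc
The letters AGGTCA began 68 bases before the start in Trem2, 228 in Cd36 and 28 in Pparg (first start), and 14.0% of all promoters of this length hold them. The spaced pair was found in Abca1, 67 bases before the start, and 0.621% of all promoters hold it. The letters TATAAA stood 29 bases before the start of Abca1, and 12.4% of all promoters hold them. Of the starts not shown, TATAAA stood 100 and 96 bases before the second start of Apoe and 29 bases before the second start of Pparg, which also had AGGTCA 9 bases before it, and Gpnmb had no match. A match is a description of letters, not a site shown to be bound.

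Trem2 and Apoe were macrophage genes in batch 1. Trem2 (chromosome 17, 48346401 to 48354147 in mm10) stood at 163 CPM (95% exact Poisson interval 135 to 196, which like all such intervals covers counting error only) in the WT and 169 CPM in the KO macrophage-like class. Of its 289 UMIs in kept barcodes of batch 1, 88.6% were in that class, which held 25.3% of the barcodes. Kept barcodes of batch 2 held 30 UMIs of Trem2, with 14 in tumor-like barcodes, which were 87.2% of the barcodes. Only 8 UMIs of Trem2 were found in the 1006 macrophage-like barcodes of batch 2, 1.59% of the barcodes. WT3 had 3 of them (104 CPM), WT5 had 2, KO2+3 had 2 and KO1 had 1, and WT1, WT4, KO4 and KO5+6 had 0. The 4 libraries at 0 allow between 74.6 CPM (KO4) and 434 CPM (WT4), so absence of Trem2 cannot be read from them. No Trem2 UMI was found in the endothelial-like class of batch 2, and monocyte-like barcodes had 11 UMIs in batch 1 and 2 in batch 2.

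Apoe (chromosome 7, 19696109 to 19699188) encodes a lipoprotein ligand that accepts cellular cholesterol. In macrophage-like barcodes its level was 3727 CPM in the WT and 3974 CPM in the KO library of batch 1. In batch 2 the WT libraries had 274 (WT1), 276 (WT3), 1302 (WT4) and 422 CPM (WT5), and the KO libraries had 778 (KO1), 270 (KO2+3), 647 (KO4) and 572 CPM (KO5+6). The groups overlapped, and WT4, whose value rests on 9 UMIs in 24 barcodes, was the highest of all. Monocyte-like barcodes, a cell type from which macrophages can arise, had 883 CPM in batch 1 and 193 ± 136 CPM (SD, n = 7) in batch 2. Tumor-like barcodes had 17.3 CPM in batch 1 and 14.1 ± 3.52 CPM (SD, n = 8) in batch 2, and T-like barcodes, which should lack Apoe, had 0 and 223 CPM in the libraries of batch 1 and 0 to 32.8 CPM in those of batch 2. The mean levels of the macrophage-like, monocyte-like and T-like classes thus stood in the same order in both batches. The macrophage-like class held 87.5% of the Apoe UMIs of kept barcodes in batch 1 but 14.9% in batch 2. Tumor-like barcodes, far more numerous in batch 2, held 64.3% there.

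Of the genes of fatty acid uptake and transport, Lpl (chromosome 8, 68880491 to 68907448) had 298 CPM in macrophage-like and 102 CPM in monocyte-like barcodes of batch 1, with 88.0% of its UMIs in kept barcodes in the macrophage-like class. Its macrophage-like level in batch 2 was 239 ± 95.2 CPM (SD, n = 8), against 64.4 ± 82.9 CPM (SD, n = 7) in monocyte-like barcodes and 0 UMIs in T-like barcodes. Fibroblast-like barcodes of batch 2 had 87.0 ± 51.7 CPM (SD, n = 8) of Lpl. The macrophage-like class held 41.5% of the Lpl UMIs of kept barcodes in batch 2. Fabp5 (chromosome 3, 10012548 to 10016607) had 801 CPM in batch 1 and 529 ± 188 CPM (SD, n = 8) in batch 2 in the macrophage-like class. Its monocyte-like levels were 301 CPM and 279 ± 174 CPM (SD, n = 7), and dendritic-like barcodes of batch 1 had 477 and 877 CPM, which overlaps with the macrophage-like values of 671 and 930.5 CPM. Fabp4, its neighbour on chromosome 3 (10204088 to 10208576), had only 32 UMIs in the macrophage-like class of batch 1 and 5 in batch 2.

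Cd36 (chromosome 5, 17781690 to 17888801), the fatty acid translocase, and Fabp4 were shared with ECs. In batch 2 the endothelial-like level of Cd36 was 1303 ± 538 CPM (SD, n = 7), against 268 ± 120 CPM (SD, n = 8) in macrophage-like and 282 ± 209 CPM (SD, n = 7) in monocyte-like barcodes, and the last 2 do not differ beyond their spread. The lowest endothelial-like library (WT1, 642 CPM) was above the highest macrophage-like one (WT5, 523 CPM). Fabp4 stood at 860 ± 522 CPM (SD, n = 7) in endothelial-like and 16.0 ± 19.9 CPM (SD, n = 8) in macrophage-like barcodes, and the classes did not overlap. Both genes were among the 10 leading genes of the endothelial-like cluster of batch 2, although neither was used for clustering. The 9 adipocyte markers, Adipoq and Plin1 among them, had 0 UMIs in that cluster in batch 2 and 3 UMIs in batch 1. Pparg (chromosome 6, 115360951 to 115490399) had 118 CPM in macrophage-like and 101 CPM in monocyte-like barcodes of batch 1. In batch 2 it had 211 ± 113, 160 ± 84.0 and 146 ± 139 CPM (SD, n = 8, 7 and 7) in macrophage-like, monocyte-like and endothelial-like barcodes, levels that do not differ beyond their spread.

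The cholesterol exporters differed from each other in how far they were macrophage genes. Abca1 (chromosome 4, 53030787 to 53159895) had 217 CPM in macrophage-like, 97.0 CPM in monocyte-like and 0.437 CPM in tumor-like barcodes of batch 1. In batch 2 the same classes had 579 ± 326 (SD, n = 8), 292 ± 145 (SD, n = 7) and 2.10 ± 0.698 CPM (SD, n = 8), and the endothelial-like class had 255 ± 177 CPM (SD, n = 7). Abcg1 (chromosome 17, 31057675 to 31117988) was found in every class. Its tumor-like level was 91.3 CPM in batch 1 and 743 ± 120 CPM (SD, n = 8) in batch 2, and its macrophage-like level was 268 and 1335 ± 243 CPM (SD, n = 8). Each macrophage-like library of batch 2, from 938 CPM (WT1) up, was above each tumor-like library, up to 896 CPM (KO1). Tumor-like barcodes, 87.2% of the kept barcodes of batch 2, held 91.1% of the Abcg1 UMIs of kept barcodes in batch 2.

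Gpnmb (chromosome 6, 49036546 to 49070929) went against its place on a macrophage list in batch 1 only. In batch 1 its tumor-like level of 124 CPM was above the macrophage-like level of 74.2 CPM, in the WT library (128 against 65.6) and in the KO library (121 against 82.9). In batch 2 the order was the other way, with 74.7 ± 18.5 CPM (SD, n = 8) in tumor-like and 284 ± 181 CPM (SD, n = 8) in macrophage-like barcodes, and the ranges of the classes overlapped (48.6 to 110 and 69.1 to 579 CPM). Tumor-like barcodes held 90.2% of its UMIs in kept barcodes in batch 1, where they were 43.7% of the kept barcodes. With Actb left out, they held 5913940 of 7216743 UMIs of kept barcodes in the WT library of batch 1. In the KO library they held 5069324 of 6519546 UMIs. Their share of barcodes in batch 1 thus understates their share of RNA. In batch 2 they held 87.5% of its UMIs and were 87.2% of the kept barcodes, so that share is near their share of barcodes. These class differences are descriptions, since the same libraries carry all classes and the clusters were drawn from the same cells.

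**Figure D1:**
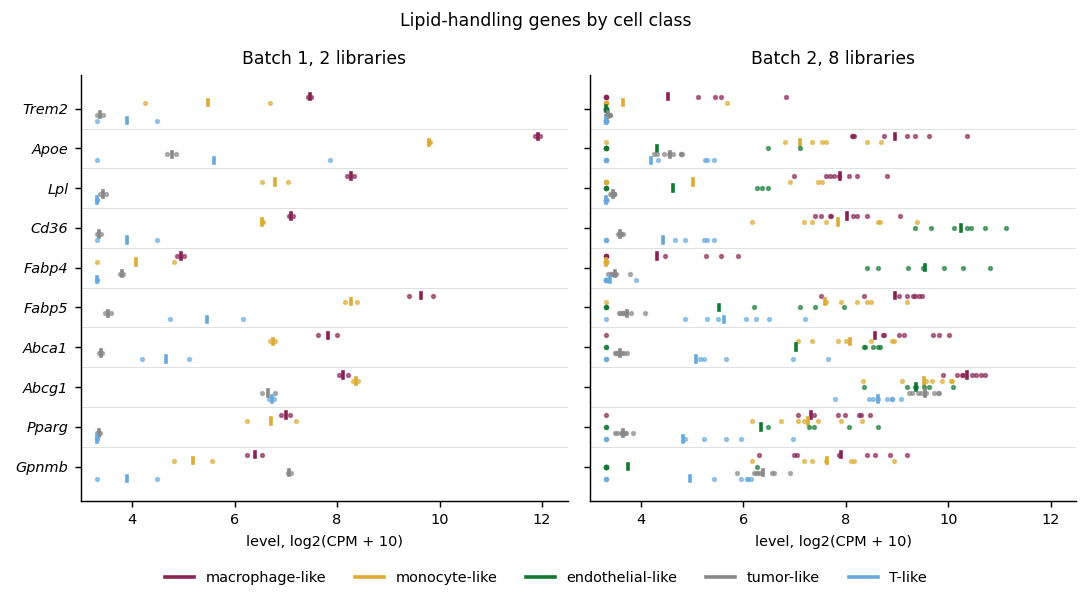
The horizontal axis gives the level of each gene as log2(CPM + 10), with 1 point per library with at least 10 barcodes of a class and a bar at the mean of the libraries, by batch and cell class. Apoe is highest in macrophage-like barcodes in both batches, Cd36 and Fabp4 in endothelial-like barcodes of batch 2, and Gpnmb is higher in tumor-like than in macrophage-like barcodes in batch 1.

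The genes whose levels were most like those of a member over the same 61 sums, among 10923 genes were as follows. For Trem2 they were Nr1h3, which encodes the liver X receptor alpha (r = 0.78), and the complement genes C1qa and C1qc (r = 0.78 and 0.77). For Apoe they were Ms4a7, Mpeg1 and C1qc (r = 0.80, 0.80 and 0.79), and for Fabp5 the chemokine genes Cxcl16 and Ccl9 (r = 0.81 and 0.79) and Tm6sf1 (r = 0.77). For Lpl they included Cd302 and Igf1 (r = 0.82 and 0.72). For Cd36 the endothelial and myeloid gene Cd93 (r = 0.92) stood well ahead of Ccdc152 and Frmd4b (both r = 0.74), and Cd93 was also first for Pparg (r = 0.79), before Rgl1 and Gm36161 (r = 0.79 and 0.78). For Fabp4 they were AC126280.1, Stc1 and Prex2 (r = 0.83, 0.78 and 0.76), for Abca1 Psd3, Fmn1 and Selenop (r = 0.77, 0.73 and 0.72) and for Abcg1 Iqgap1, Dennd1a and Ap2a2 (r = 0.79, 0.79 and 0.77). For Gpnmb they were Zeb2, Lgmn and Mitf (r = 0.78, 0.73 and 0.72), the last a transcription factor of melanocytes and macrophages. Among the members themselves, Trem2 and Gpnmb had an r of only 0.14 and Apoe and Gpnmb of 0.16.

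Within the macrophages the members did not share 1 order of levels. All myeloid barcodes were then clustered more finely and named anew, so these clusters are not subsets of the classes above. Batch 1 gave a cluster led by Ccl8, Folr2 and Gas6 (155 barcodes) and another of 107 barcodes. In the second, Mmp12 and Pdpn stood with hemoglobin genes and the mast cell gene Mcpt4 among the leading genes, and the part of mast cell RNA was not tested. Apoe was 5706 CPM (95% interval 5515 to 5901) in the first and 2638 CPM (2457 to 2829) in the second. Lpl, Cd36, Fabp5 and Gpnmb went the other way. Lpl was 305 CPM (262 to 353) in the first and 522 CPM (444 to 611) in the second, Cd36 99.4 (75.6 to 128) and 352 CPM (288 to 426), Fabp5 844 (771 to 921) and 1386 CPM (1256 to 1526), and Gpnmb 38.7 (24.6 to 58.1) and 181 CPM (136 to 236). Trem2, with 222 CPM (186 to 264) and 184 CPM (139 to 240), and Abca1, with 258 CPM (218 to 302) and 308 CPM (248 to 378), had overlapping intervals. Another cluster, of 184 barcodes led by the MHC class II genes H2-Aa, H2-Eb1 and Cd74, had 3180 CPM of Apoe and 28.3 CPM of Cd36. Both libraries of batch 1 showed these orders. Lpl was 348 and 415 CPM in the WT and 272 and 623 CPM in the KO library (Ccl8 cluster, then Mmp12 cluster), and Cd36 was 82.0 and 339 CPM in the WT and 113 and 364 CPM in the KO library.

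In batch 1 the finer clustering named 2 clusters monocyte-like, with more barcodes together than the 119 of the class whose level is given above. The cluster led by Plac8, Ifitm6 and Chil3 (88 barcodes) had 164 CPM of Apoe (104 to 247), while the cluster in which Plac8 and Ly6c2 stood with interferon response genes (120 barcodes) had 1480 CPM (1334 to 1638). Pparg was 179 CPM (116 to 264) and 114 CPM (76.5 to 164) in the same clusters. In batch 2 the cluster named monocyte-like held 129 barcodes, against 475 in the class. Apoe and Abca1 were each at 53.6 CPM in it (2 UMIs each), against class means of 193 and 292 CPM. Lpl, at 107 CPM (4 UMIs), was above its class mean of 64.4 CPM. The batch 2 monocyte-like levels thus depend on how finely the barcodes are clustered. With the finer clustering no member had enough UMIs for a test in the monocyte-like class.

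In batch 2 a cluster led by Gja1, Lamc1, Phyh and Pdpn (187 barcodes) had the highest value of 8 members among the macrophage-like clusters, all but Fabp4 and Pparg. Among these were Trem2 (80.4 CPM from 5 UMIs), Apoe (611 CPM), Lpl (482 CPM), Cd36 (579 CPM) and Abca1 (868 CPM). Its interval for Lpl (325 to 688 CPM) lay above those of the clusters led by Slc27a1 (125 to 290 CPM) and Malt1 (41.1 to 211 CPM) and overlapped with that of the cluster led by Dnase1l3 (121 to 390 CPM). The interval for Apoe (432 to 838 CPM) overlapped with that of the Slc27a1 cluster (316 to 554 CPM), so the highest value is not set apart from its neighbours for each gene. A cluster of 213 barcodes called macrophage-like by its markers was led by the mast cell genes Kit, Mcpt4 and Hdc, which goes against that name, and it had 462 CPM of Pparg (307 to 667) and 445 CPM of Gpnmb (293 to 648). The part of mast cell RNA in these levels was not tested. Since the clusters were drawn from these cells and read after the fact, the differences between them are descriptions without a test.

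**Figure D2:**
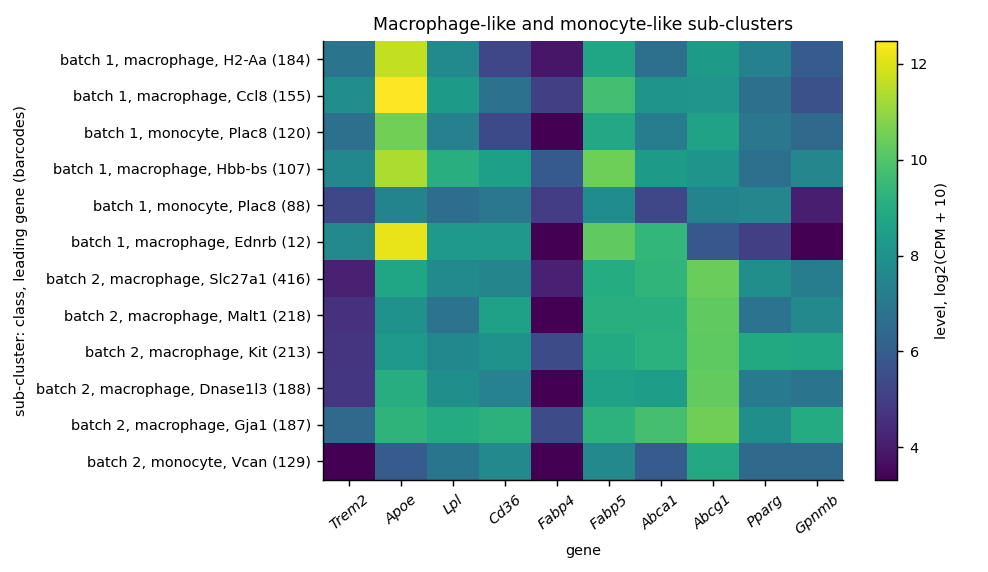
Each row is a macrophage-like or monocyte-like sub-cluster with its batch, its leading gene and its number of barcodes, each column a gene, and the color gives log2(CPM + 10) over all libraries of the batch. The Apoe column is brightest in the Ccl8 row (5706 CPM), and Lpl and Cd36 are brighter in the batch 1 row led by Hbb-bs, the cluster with Mmp12 and Pdpn, and in the batch 2 row led by Gja1.

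To ask whether the loss of Ago1 in ECs went with a change of lipid handling in tumor macrophages, WT and KO libraries were compared in each class by edgeR's quasi-likelihood test on summed UMIs. In macrophage-like barcodes, with batch in the model and all 10 libraries, no gene of 804 passed an adjusted p-value of 0.05 (0 genes, 0%), 34 had an unadjusted p-value under 0.05 (4.23%) and DESeq2 also called 0. In batch 2 each KO library was above each WT library for 2.11% of these genes, and below each for 1.74%, and none of the 4 members tested was among them. Only 4 members had enough UMIs to be tested, and 2 were higher and 2 lower in KO, with a median log2 fold change of -0.08 against -0.01 over all genes tested. On simulated data of this comparison, with 161 of 804 genes changed by 1 on the log2 scale, the test recovered 97.5% of them. So many changed genes ease the adjusted threshold, so this does not show that such a change in a few genes would be found.

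Apoe differed by 0.16 on the log2 scale (standard error, SE, 0.29) in macrophage-like barcodes (edgeR adjusted p = 0.999). Fabp5 had 930.5 CPM in the WT and 671 CPM in the KO library of batch 1. Its batch 2 values were 625, 173, 579 and 674 CPM in WT1, WT3, WT4 and WT5 and 704, 319, 647 and 515 CPM in KO1, KO2+3, KO4 and KO5+6, which overlap. KO against WT was -0.32 on the log2 scale (SE 0.23, edgeR adjusted p = 0.999), and it rested on batch 1, as it was -0.01 in batch 2 alone.

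Abca1 was 247 CPM in the WT and 188 CPM in the KO library of batch 1, and 821, 414, 0 and 894 CPM in the WT and 555, 417, 1020 and 515 CPM in the KO libraries of batch 2, in the same order. The groups overlapped between 417 and 894 CPM, and WT4, at 0, allows up to 434 CPM. The log2 fold change was -0.32 (SE 0.25, edgeR adjusted p = 0.999), while the plain batch 2 mean, in which a library of few UMIs counts as much as a large one, was 532 ± 413 CPM in WT and 627 ± 268 CPM in KO (SD, n = 4 each). Abcg1 was 251 and 285 CPM in the WT and KO libraries of batch 1, and 938, 1140, 1591 and 1231 CPM in the WT and 1666, 1471, 1243 and 1402 CPM in the KO libraries of batch 2. WT4 alone among the WT libraries reached the upper KO values. The log2 fold change was 0.23 (SE 0.16, edgeR adjusted p = 0.999), a difference near its error.

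The other 6 members were below the limit on low counts in macrophage-like barcodes and have no test there. In batch 2, Lpl had a median of 248 CPM in WT and 210 CPM in KO libraries, Cd36 of 242 and 237 CPM, Pparg of 199 and 258 CPM and Gpnmb of 286 and 279 CPM, with overlapping ranges in each case. Fabp4 had 0 UMIs in the 4 WT libraries of batch 2 and 1, 1, 2 and 1 UMIs in KO1, KO2+3, KO4 and KO5+6. The WT count of 0 in 120773 UMIs allows up to 24.8 CPM over the group, while KO had 5 UMIs at a mean of 31.9 ± 15.7 CPM (SD, n = 4). The class was also deeper in KO, with 27007 to 81588 UMIs per library against 6913 to 59311 in WT. In batch 1 the WT and KO libraries had 16 UMIs each, so a difference in Fabp4 was not detectable at this depth.

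**Figure D3:**
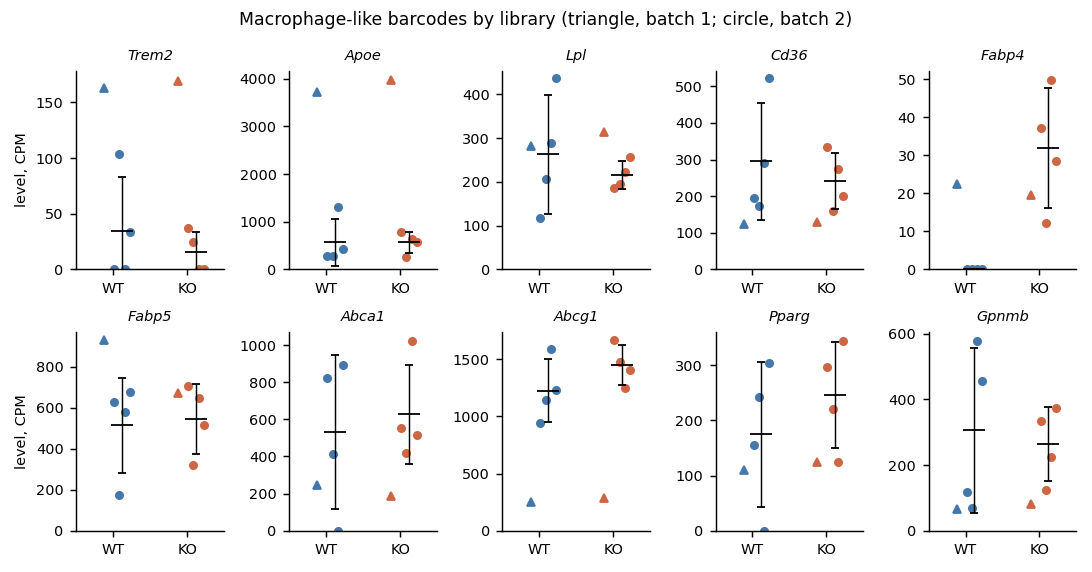
The level in CPM of each gene in macrophage-like barcodes is drawn for WT and KO, with 1 point per library and the mean ± SD of the 4 batch 2 libraries as a bar cut off at 0. WT and KO overlap in batch 2 for each gene other than Fabp4, whose 4 WT libraries stand at 0 and whose KO points rest on 1 or 2 UMIs. Fabp4 was not among the genes tested, and how often genes of such low counts part the groups was not counted. Apoe and Trem2 are higher in batch 1 than in batch 2.

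Shares of macrophage-like barcodes with a UMI were compared as well. When each barcode was thinned to 500 UMIs, 57.5% of the WT and 58.4% of the KO macrophage-like barcodes of batch 1 held Apoe, against 0% to 1.52% of T-like barcodes. In batch 2 the shares were 8.21% and 15.1% in the 2 WT libraries and 9.38% to 18.4% in the 3 KO libraries with at least 10 barcodes of that depth, against 0% to 2.48% of T-like barcodes. Without thinning, at a median depth per library of 2637 to 2756 UMIs in batch 1 and 307 to 359 UMIs in batch 2, the Apoe shares were 75.9% and 77.9% in batch 1, 6.59% to 29.2% in the WT libraries and at most 15.3% in the KO libraries of batch 2, against 0% to 1.96% of T-like barcodes, at medians of 318 to 1459 UMIs. The 10 members were compared by permuting WT and KO within a batch (exact, two-sided), and 0 reached p = 0.05, the smallest value that 7 libraries allow, and the smallest p was 0.15 (Fabp4). Thinned to 300 UMIs, which kept all 10 libraries, the share of barcodes with Fabp4 was 0% in the WT and 0.19% to 1.36% in the KO libraries of batch 2, and 0.522% (WT) and 0.574% (KO) in batch 1. Its exact permutation p was then 0.0143, the smallest possible, but 0.143 once adjusted over the 10 members, and it rests on the same 5 UMIs in batch 2. For the other 9 members p was 0.1 to 1 at this depth.

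The difference between WT and KO was also compared between macrophage-like and tumor-like barcodes, with the difference of log2(CPM + 10) between the classes taken in each library. For Apoe this difference was 5.01 ± 1.55 in WT and 4.88 ± 1.37 in KO (SD, n = 5 each, exact permutation p = 0.786). For Abcg1 it was 0.92 ± 0.48 in WT and 1.00 ± 0.37 in KO (SD, n = 5 each, exact permutation p = 0.657). The smallest p among the 10 members was that of Fabp4 (exact permutation p = 0.0286, where 0.0143 is the smallest possible), with 0.06 ± 0.65 in WT and 1.72 ± 0.63 in KO (SD, n = 5 each). This value rests on the 5 UMIs given above. The p-values are for single genes and do not account for the 10 tests. Adjusted over these, the exact permutation p of Fabp4 was 0.286.

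In monocyte-like barcodes, without WT4, which had 4 barcodes, edgeR and DESeq2 each called 0 of 295 genes (0%), and 19 had an unadjusted p-value under 0.05 (6.44%). The KO libraries of batch 2 lay wholly above the WT libraries for 5.08% of them and wholly below for 2.37%. Abcg1 was the only member tested. It was 329 and 308 CPM in the WT and KO libraries of batch 1. In batch 2 it was 1057, 311 and 748 CPM in WT1, WT3 and WT5 and 535, 1071, 808 and 933 CPM in KO1, KO2+3, KO4 and KO5+6, overlapping groups with a log2 fold change of 0.14 (SE 0.27, edgeR adjusted p = 0.869).

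In ECs, the cells in which the KO mice delete Ago1, 2 members could be tested, and Cd36 had the larger difference. Only 7 batch 2 libraries had at least 10 endothelial-like barcodes, so WT4 and both batch 1 libraries were dropped and the model had no batch term. Of 217 genes tested by edgeR, 0 had an adjusted p-value under 0.05 (0%), with DESeq2 also calling 0, and 18 had an unadjusted p-value under 0.05 (8.29%). Cd36 stood at 642 (5 UMIs), 1091 (7 UMIs) and 798 CPM (12 UMIs) in WT1, WT3 and WT5 and at 1665 (26 UMIs), 1317 (11 UMIs), 2231 (28 UMIs) and 1377 CPM (19 UMIs) in KO1, KO2+3, KO4 and KO5+6. Each KO library was thus above each WT library, as held for 4.61% of the genes tested, while the reverse held for 5.53%. The log2 fold change was 0.97 (SE 0.35, edgeR adjusted p = 0.474), and Cd36 was number 7 of the 217 genes by p-value. The self-test found 41.9% of genes changed by 1 on the log2 scale in this class, so a change of that size is often missed here. The dropped WT4, with 5 UMIs in 9 barcodes, was at 996 CPM, below the KO libraries. Batch 1 went the other way, with 17 UMIs in 8 WT barcodes (718 CPM, 418 to 1150) and 2 UMIs in 6 KO barcodes (65.4 CPM, 7.93 to 236).

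Other quantities moved with the groups in the same barcodes. The summed level of the 11 endothelial markers was 2395 to 3081 CPM in WT and 3043 to 4428 CPM in KO libraries, and that of the 7 tumor markers was 10914 to 14763 CPM in WT and 4907 to 10037 CPM in KO libraries. The tumor gene Pvt1 alone was 5194 ± 871 CPM in the 3 WT and 2235 ± 1109 CPM in the 4 KO libraries (exact permutation p = 0.0571, adjusted over 7 comparisons 0.3). Per 100 endothelial marker UMIs, Cd36 had 20.8, 41.2 and 33.3 UMIs in WT1, WT3 and WT5 and 38.8, 29.7, 60.9 and 45.2 in KO1, KO2+3, KO4 and KO5+6. On this scale the groups overlapped (exact permutation p = 0.257, adjusted over 7 comparisons 0.36). With the endothelial marker UMIs as the library size, a choice likewise made after seeing the data, the log2 fold change of Cd36 was 0.48 (SE 0.41, edgeR adjusted p = 0.494), and with free RNA subtracted it was 0.61. The estimated free RNA of these barcodes, 34.1% to 100%, is too wide to be relied on. In barcodes with at most 50 UMIs, which hold free RNA, Cd36 was 31.2 to 42.9 CPM in the WT and 55.2 to 71.1 CPM in the KO libraries of batch 2, and 9.80 and 8.90 CPM in the WT and KO libraries of batch 1. Beyond these values, the part of tumor RNA and of free RNA in the Cd36 difference was not tested.

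Fabp4 in endothelial-like barcodes had 385, 1247 and 333 CPM in WT1, WT3 and WT5 and 961, 1795, 717 and 580 CPM in KO1, KO2+3, KO4 and KO5+6. The groups overlapped through WT3, and the log2 fold change was 0.70 (SE 0.54, edgeR adjusted p = 0.71). WT3 decided its size, since the value was 1.42 without that library and 0.25 without WT5. The remaining 8 members had too few UMIs for a test, with Trem2 at 0 UMIs in all 7 libraries and Abcg1 at 642 to 780 CPM in WT and 319 to 1077 CPM in KO libraries.

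In tumor-like barcodes, edgeR called 0 of 11614 genes at an adjusted p-value of 0.05 (0%), 686 had an unadjusted p-value under 0.05 (5.91%), and DESeq2 called 3. Of 6 members tested, 3 were higher and 3 lower in KO, with a median log2 fold change of 0.02 against 0.0041 over all genes tested. Apoe had 15.6 CPM in the WT and 19.1 CPM in the KO library of batch 1. In batch 2 it had 9.22, 13.6, 9.88 and 11.9 CPM in WT1, WT3, WT4 and WT5 and 17.6, 17.7, 17.9 and 14.8 CPM in KO1, KO2+3, KO4 and KO5+6. The groups did not overlap in batch 2, as was so with KO higher for 2.59% and with KO lower for 0.697% of the genes tested. The log2 fold change was 0.50 (SE 0.15, edgeR adjusted p = 0.833), number 39 of the genes by p-value, so it did not pass the test. The other 5 members tested, Abcg1, Gpnmb, Cd36, Fabp5 and Pparg, had log2 fold changes from -0.30 to 0.16 with adjusted p-values of 0.898 to 0.974.

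Over all kept barcodes of a library, 0 of 12450 genes had an adjusted p-value under 0.05 by edgeR (0%), 1102 had an unadjusted p-value under 0.05 (8.85%), and DESeq2 called 2. Of 9 members tested, 8 were higher and 1 (Gpnmb) lower in KO, and the median log2 fold change was 0.27 against -0.0025 over all genes tested. These sums mix cell types. Macrophage-like barcodes were 22.3% (WT) and 29.0% (KO) of the kept barcodes in batch 1, and 0.255% to 2.96% in the WT and 1.11% to 4.02% in the KO libraries of batch 2 (exact permutation p = 0.2, adjusted over 7 comparisons 0.36), and more cells with a gene and more of its RNA per cell cannot be told apart in them.

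Apoe had 424 CPM in the WT and 570 CPM in the KO library of batch 1. In batch 2 it stood at 12.3, 17.7, 13.2 and 17.1 CPM in WT1, WT3, WT4 and WT5 and at 24.4, 23.5, 26.1 and 23.0 CPM in KO1, KO2+3, KO4 and KO5+6. Each KO library was above each WT library in both batches, and in batch 2 this held for 3.82% of all genes tested and the reverse for 0.586%. The log2 fold change was 0.56 (SE 0.12, edgeR adjusted p = 0.450), number 6 of 12450 genes by p-value, and the adjusted p was 0.066 by DESeq2. Only without the limit on low counts did Apoe pass the test, with an adjusted p of 0.0476 among 27390 genes. Without macrophage-like and monocyte-like barcodes, a choice made with the data in view, the log2 fold change was 0.51 (SE 0.13, edgeR adjusted p = 0.468). In tumor-like barcodes of batch 2 the 13 macrophage markers summed to 33.4 to 37.5 CPM in WT and 26.1 to 42.1 CPM in KO libraries. In barcodes with at most 50 UMIs, which hold free RNA, Apoe was 28.8 to 61.3 CPM in the WT and 43.0 to 60.5 CPM in the KO libraries of batch 2. An estimated 6.53% to 10.7% (WT) and 4.61% to 7.95% (KO) of tumor-like UMIs per library were free RNA. The part of macrophage RNA and of free RNA in the Apoe difference was not tested.

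Cd36 had 6.02, 5.52, 4.81 and 10.5 CPM in WT1, WT3, WT4 and WT5 and 9.14, 10.4, 12.2 and 11.7 CPM in KO1, KO2+3, KO4 and KO5+6, over all kept barcodes, and 16.8 and 18.4 CPM in the WT and KO libraries of batch 1. WT5 lay inside the KO range. The log2 fold change was 0.48 (SE 0.20, edgeR adjusted p = 0.536), and 0.09 in barcodes with at least 500 genes.

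**Figure D4:**
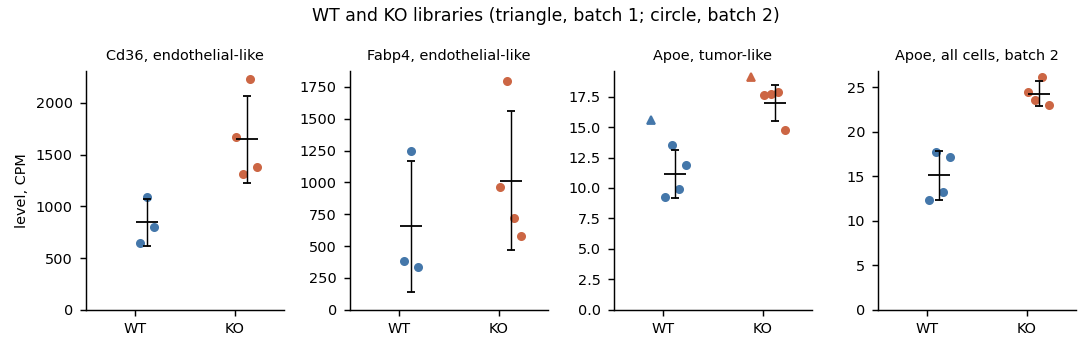
Levels in CPM in WT and KO libraries are drawn for Cd36 and Fabp4 in endothelial-like barcodes, Apoe in tumor-like barcodes and Apoe over all kept barcodes of batch 2, with 1 point per library and the mean ± SD of the batch 2 libraries as a bar. In batch 2 the KO points lie above the WT points for Cd36 and for Apoe, and overlap with them for Fabp4. In batch 2 KO lay wholly above WT for 4.61% (endothelial-like), 2.59% (tumor-like) and 3.82% (all kept barcodes) of the genes tested. None of these differences had an adjusted p-value under 0.05. In the tumor-like panel the batch 1 WT point (15.6 CPM) lies above the KO5+6 point (14.8 CPM). The batch 1 endothelial-like values of Cd36, which went the other way, are not drawn.

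Most of the RNA of 8 members in batch 2 lay outside the kept barcodes. Barcodes with over 50 UMIs but under 200 genes held 11.9% of all UMIs of batch 2 but 56.5% of those of Fabp5, 54.1% of Abca1, 47.4% of Cd36, 46.4% of Lpl, 45.7% of Trem2 (64 of 140 UMIs), 45.4% of Apoe, 43.5% of Pparg and 42.9% of Fabp4. For Abcg1 and Gpnmb, which tumor-like barcodes carry, these shares were 13.7% and 23.2%. Kept barcodes held 71.7% of all UMIs of batch 2, but 15.1% (Pparg) to 34.1% (Apoe) of those of the 8 members, 66.4% of Gpnmb and 80.1% of Abcg1. In batch 1 the same barcodes under 200 genes held 4.10% of all UMIs and 0.476% (Abcg1) to 7.64% (Fabp4) of those of a member. The limit of 200 genes therefore leaves out much of the RNA that these genes have in batch 2, and little of it in batch 1.

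Among the barcodes of batch 2 with over 50 UMIs and under 200 genes, Apoe stood at 103 to 144 CPM in the WT and 174 to 222 CPM in the KO libraries. Over these barcodes of both batches, also chosen after seeing the data, its log2 fold change was 0.70 (SE 0.17, edgeR adjusted p = 0.346). With every barcode of a library counted, another such alternative, the log2 fold change was 0.49 (SE 0.14) for Apoe and 0.53 (SE 0.16) for Cd36, both with an edgeR adjusted p of 0.151. No gene was called under either alternative.

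**Figure D5:**
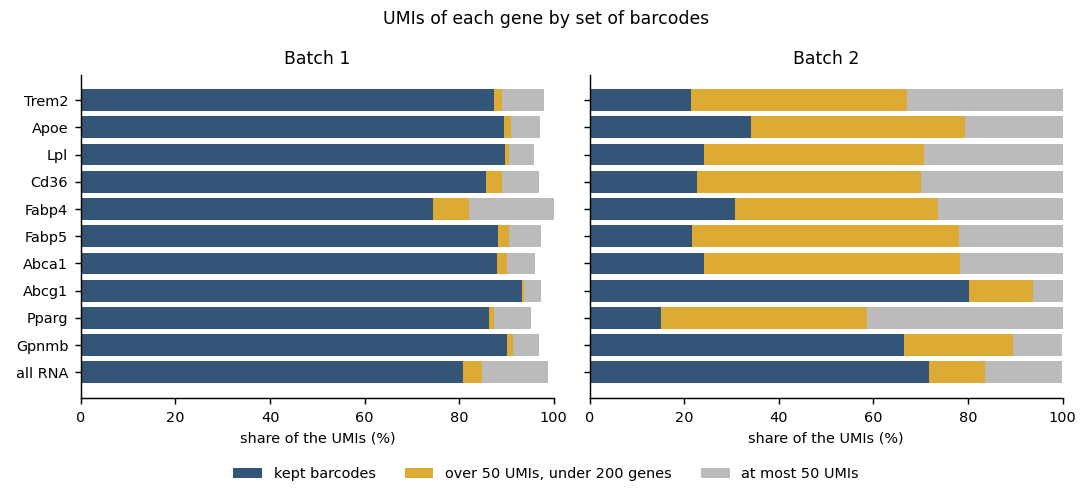
Each bar gives the share in percent of a gene's UMIs in kept barcodes, in barcodes with over 50 UMIs and under 200 genes and in barcodes with at most 50 UMIs, by batch, with all RNA as the last bar, and what is left to 100% lies in other barcodes. In batch 2 the middle part is 42.9% to 56.5% for 8 genes but 13.7% for Abcg1, 23.2% for Gpnmb and 11.9% for all RNA.

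The wider lists of the same pathways, each without the members, were read in the same fits. In macrophage-like barcodes 3 of 16 genes of cholesterol efflux and its receptors, 0 of 12 of lipoprotein and scavenger uptake, 1 of 19 of fatty acid use and lipid droplets and 4 of 15 of the program described for Trem2 macrophages had enough UMIs for a test, and 0 were called in either direction. By the smallest p-values, Nceh1 and Npc2, which act in cholesterol ester breakdown and in lysosomal cholesterol export, had log2 fold changes of 0.22 (SE 0.22) and -0.06 (SE 0.22). Plin2, the coat protein of lipid droplets, had -0.21 (SE 0.20), and the lectin gene Lgals3 and the progranulin gene Grn had -0.44 (SE 0.23) and 0.20 (SE 0.22), all with an edgeR adjusted p of 0.999. In tumor-like barcodes 11, 7, 16 and 11 genes of the same lists were tested and 0 were called, with list medians of -0.01, -0.04, 0.01 and 0.02 on the log2 scale. Over all kept barcodes 13, 8, 16 and 12 genes were tested and 0 were called, and in monocyte-like barcodes only 2 genes of the Trem2 macrophage list were tested and 0 called, while no listed gene was tested in endothelial-like barcodes.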

How the data were processed

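UMI counts were deposited by the authors as 1 matrix of genes and barcodes for each of the 10 libraries, aligned to mm10 with Cell Ranger 7.1.0 per the labels and with every barcode listed. Totals were 8323896 to 10591577 UMIs per library. Barcodes within 200 to 7000 genes and up to 10% mitochondrial UMIs were Leiden-clustered within each batch (Python 3.11.15, scikit-learn 1.9.0, igraph 0.11.9). Clusters were named from marker lists with thresholds set after the clusters and the levels of the 10 genes had been seen, and before WT and KO were compared. Doublets were not removed and no doublet caller was run. The genes and lists were chosen with earlier results of these data known. UMIs were summed per class and library with at least 10 barcodes, and genes passing edgeR's limit on low counts were tested with edgeR 4.0.16 (quasi-likelihood, TMM, batch and group as terms) in R 4.3.3 with Benjamini-Hochberg adjustment. DESeq2 1.42.0, filters, clusterings and left-out libraries were alternatives. Single values were compared by exact two-sided permutation within batch (scipy 1.17.1). Besides the 10 genes, the text names the 3 genes most alike to each by Pearson's r (1 of those for Lpl is not reported here) and, for the wider lists, up to 2 genes each with the smallest p-value in macrophage-like barcodes. The tests were checked on simulated counts with 200 changed genes or fewer. Labels give no mouse number for batch 1 and 2 numbers for each pooled KO library, and p-values measure the spread between libraries. Shares thinned to 500 UMIs leave out shallower barcodes.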

Additional observations from a re-analysis of the deposited data

Results flagged for a closer look

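In 41 groups of 4 batch 2 libraries, 4 libraries stood far from the others, and chance gives about 1 in 20. Apoe in macrophage-like barcodes was 1302 CPM in WT4, which rests on 9 UMIs in 24 barcodes, with the nearest WT library at 422 CPM. Apoe in tumor-like barcodes was 14.8 CPM in KO5+6, with the nearest KO library at 17.6 CPM. Fabp5 in tumor-like barcodes was 6.84 CPM in WT4, with the nearest WT library at 2.63 CPM. Gpnmb in tumor-like barcodes was 110 CPM in WT1, with the nearest WT library at 67.8 CPM.

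Outside the kept barcodes, Apoe in barcodes with over 50 UMIs and under 200 genes was at least 174 CPM in the KO libraries and at most 144 CPM in the WT libraries of batch 2, and 183 CPM in KO and 129 CPM in WT in batch 1. The cell types of these barcodes were not analysed here.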

How the results depend on the processing

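Of 728 values of the 10 genes under alternatives, 727 stayed on the same side of the threshold, but 66 had the other direction, none of them past the threshold, and 16 of 42 results kept 1 direction throughout. For the permutation tests among these, staying on that side was partly fixed in advance by the few libraries. The share test on 7 libraries cannot go under p = 0.05 (exact permutation). On all 10 libraries, 1 gene alone at the smallest exact permutation p, 0.0143, has an adjusted p of 0.143. The least stable directions were those of the Lpl share of macrophage-like barcodes (4 of 11 alternatives in the main direction, -5.11 to 6.04 percentage points), the Fabp5 share (5 of 11) and Fabp5 over all kept barcodes (15 of 23, -0.26 to 0.25 on the log2 scale). Apoe over all kept barcodes and in tumor-like barcodes and Cd36 in endothelial-like barcodes kept their direction under each alternative run. The change of side was Apoe over all kept barcodes with no filter on low counts (0.52, adjusted p = 0.0476). Against 0 genes called in each class, no filter gave 9 genes in macrophage-like, 2 in monocyte-like, 36 in tumor-like and 242 in all kept barcodes (207 of these higher in KO). DESeq2 gave 3 in tumor-like and 2 in all kept barcodes. In macrophage-like barcodes, batch 2 alone and a clustering resolution of 0.5 gave 1 each. Without the 2 pooled KO libraries, monocyte-like barcodes gave 2, and endothelial marker UMIs as library size, chosen after seeing the data, gave 1 in endothelial-like barcodes. The cause was not tested. Leaving out 1 library gave 0 to 2 genes in macrophage-like (2 without either batch 1 library), 0 to 3 in monocyte-like (3 without KO2+3), 0 to 2 in endothelial-like (2 without WT3), 0 in tumor-like and 0 to 1 in all kept barcodes (1 without KO4).

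The replicate block gave 0 calls in every class, with 0.56 for Apoe over all kept barcodes and 0.79 (adjusted p = 0.550) for Cd36 in endothelial-like barcodes. Same-numbered WT and KO libraries of batch 2 correlated from -0.404 to 0.370 over all kept barcodes, and other pairs from -0.254 to 0.514. In macrophage-like barcodes the same-numbered pairs had 0.00883 to 0.0329 and the other pairs -0.0280 to 0.0157. Only 4 pairs share a number, so whether the numbers pair the libraries cannot be decided. Barcodes with at least 500 genes were too few for a fit in macrophage-like, monocyte-like and endothelial-like barcodes, as were endothelial-like barcodes without a tumor UMI. Depth limits macrophage-like values in batch 2 to 6913 to 81588 UMIs per library.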

Other observations

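Cell types other than those compared above also held some of the genes. Dendritic-like barcodes had 677 ± 283 CPM (SD, n = 2) of Fabp5 in batch 1 and 213 ± 190 CPM (SD, n = 8) in batch 2, with 0 Trem2 UMIs in either. Abcg1 in the same class was 73.0 CPM in batch 1 and 689 ± 302 CPM (SD, n = 8) in batch 2. That batch 2 level is near the 743 CPM of tumor-like barcodes. In the dendritic-like barcodes of batch 2 the 7 tumor markers summed to 13306 CPM and the 10 dendritic markers to 5643 CPM. The part of tumor RNA in these levels was not tested.

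The batches ordered the 10 genes differently in macrophage-like barcodes, and this order went with the length of the gene in the genome. On the scale of log2(CPM + 10), batch 2 stood against batch 1 at -2.74 for Apoe (3.08 kb), -2.34 for Trem2 (7.75 kb) and -0.59 for Fabp5 (4.06 kb), but at 1.03 for Cd36 (107 kb), 1.37 for Abca1 (129 kb) and 2.27 for Abcg1 (60.3 kb). Over the 10 genes Spearman's rho between gene length and this ratio was 0.72, as a description. Over the 804 genes tested in the class it was 0.33, and over 11603 genes in tumor-like barcodes 0.56. Among the tested genes, those under 10 kb had a median ratio of -0.54, those of 10 to 50 kb of 1.53 and those over 50 kb of 1.89 in macrophage-like barcodes. In tumor-like barcodes the same medians were -0.70, -0.07 and 0.51. Only genes above the limit on low counts enter, and 8 of the 10 libraries are of batch 2. The macrophage-like medians therefore lean toward genes that are high in batch 2. In the same class Malat1, a nuclear RNA, was 10266 and 14192 CPM in the libraries of batch 1 and 3482 to 5013 CPM in batch 2, and the mitochondrial share of UMIs was 3.22% and 3.44% in batch 1 and 0.504% to 0.835% in batch 2. The part of these in the levels of the 10 genes was not tested.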
